A study of Rattus norvegicus with 24 samples.

Results

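Genes that moved in the same direction after 1 Gy of X-rays in rat neurospheres (NSps), whether or not the cultures also received Noggin or ascorbic acid, are described here from bulk RNA-seq. For each gene, the difference between irradiated and non-irradiated group means of log2(TPM + 1) was taken under each of 3 conditions, where TPM is a transcript abundance scaled for transcript length and library size. The 75 genes whose smallest difference was highest form the up members, and the 75 whose largest difference was lowest form the down members, so the members were chosen by the measured radiation responses themselves. These 150 members were taken from 7860 genes that averaged 5 TPM or more in one group at least (eligible genes), out of 16478 genes listed. Because the 3 radiation differences chose the members, they are given as a description without a test.

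The study asked how radiation affects neural progenitor cells grown as NSps, and whether Noggin or ascorbic acid added around the exposure alters the response. The cells were primary progenitors from the brains of embryonic day 15 Sprague Dawley rat fetuses. The 24 samples fall into 6 groups of 4. Non-irradiated NSps were untreated (C), given 5 µM Noggin (N) or given 200 µM ascorbic acid (A), and the matching irradiated groups received 1 Gy on day 3 after seeding (CGy, NGy and AGy), with Noggin or ascorbic acid present before and after the exposure. All groups shared medium with epidermal and fibroblast growth factors, which keep progenitors dividing. One control sample, MO2, was removed by the authors as an outlier and did not enter the choice of members, so C has 3 samples. Nothing in the labels or methods states that the samples of a group came from separate litters or cultures, so the spread between them, and every p-value below, may be technical. In a culture of mixed cells, fewer cells of one type and less RNA per cell cannot be told apart.

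NSps are floating clusters that form when neural progenitors divide without attaching, and their cells can give rise to neurons, astrocytes and oligodendrocytes. Ionizing radiation breaks DNA, and progenitors are known to answer with the p53 damage response, arrest of the cell cycle, death or differentiation. Noggin binds bone morphogenetic proteins, which favor astrocyte formation, and keeps them from their receptors, while ascorbic acid is an antioxidant and a cofactor of several hydroxylases. The tables name genes by Ensembl identifier alone. As 0 of the 16478 identifiers matched a gene name in the reference tables used here, the members are described by identifier or rank, their roles are not stated, and marker genes of the cells were not examined.

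After 1 Gy alone, the up members were higher by a median of 0.92 on the log2(TPM + 1) scale (range 0.43 to 2.46 over the 75 genes). The median was 0.65 with Noggin (0.40 to 3.14) and 0.60 with ascorbic acid (0.41 to 2.10). Over all eligible genes the same medians were 0.05, 0.01 and -0.01. The highest values of the 3 ranges came from the up members ranked 31, 1 and 5. Each of these genes had non-irradiated samples at or next to 0 TPM, so these 3 values are uncertain as sizes of a response. The rise was largest without a pretreatment for 57 of the 75 and smallest with ascorbic acid for 44, while over the 7860 eligible genes the difference was largest in size without a pretreatment for 3411 and smallest with ascorbic acid for 3257. This order depended on the control MO4, as the median without a pretreatment was 0.62 when it was left out, next to 0.65 and 0.60. In the down members the median difference was -0.72 after 1 Gy alone, -0.85 with Noggin and -0.58 with ascorbic acid. Here the fall was largest with Noggin for 49 members and smallest with ascorbic acid for 45, and among the eligible genes the difference was largest in size with Noggin for 3031. This order turned without 4 libraries described further on (MO15, MO16, MO19 and MO20), with medians of -0.14, -0.39 and -0.58, so that the fall with ascorbic acid had the largest median. A change of at least 1.5-fold under all 3 conditions was seen for 28 up members and 27 down members. Over the 7860 eligible genes the counts were also 28 and 27, so the lists hold every such gene. The lists are the ends of a continuous range. The last up members inside the list had a smallest difference of 0.40 and the first outside also 0.40, and the corresponding value was -0.44 on both sides of the limit of the down list.

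**Figure D1:**
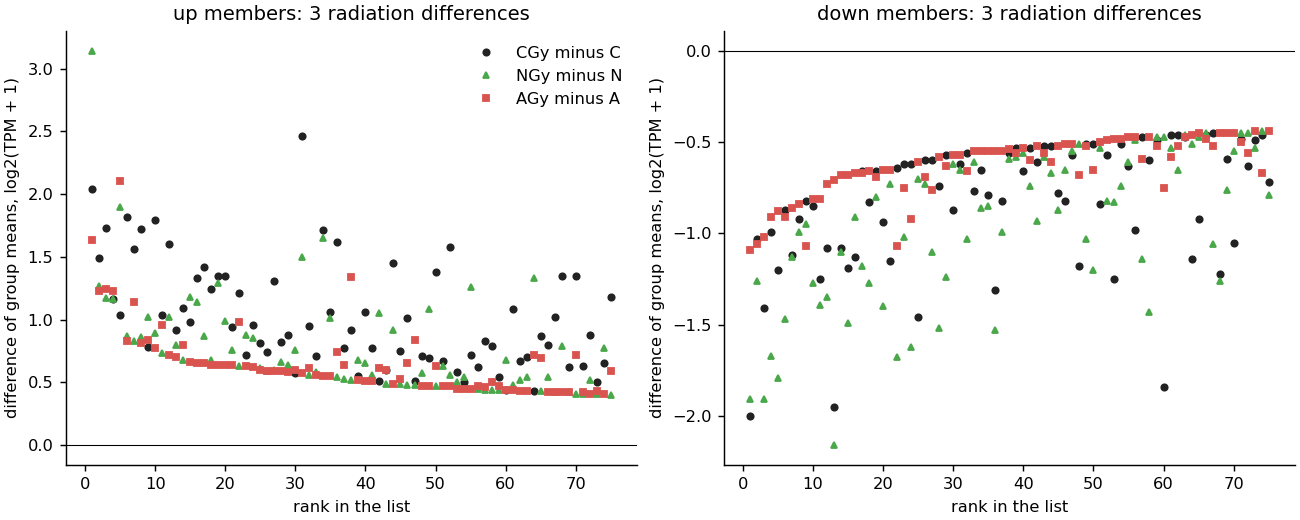
Difference between irradiated and non-irradiated group means of log2(TPM + 1), for the 75 up members (left) and 75 down members (right) in order of rank, without a pretreatment (black circles), with Noggin (green triangles) and with ascorbic acid (red squares). All points of the up members lie above 0 and all points of the down members below 0, as the rule requires. The black circles are mostly the highest points on the left.

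The members were moderately expressed. The median of the gene means in C was 11.8 TPM for the up members and 11 TPM for the down members, against 22.1 TPM for the eligible genes. In CGy the corresponding values were 19.0, 6.33 and 23.4 TPM. A few members reached high levels, as 7 up members and 2 down members had a mean of at least 100 TPM in C.

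ENSRNOG00000004713 was the first up member by rank. Its level was 0.374, 13.3 and 0 TPM in the C samples MO1, MO3 and MO4, and 4.27, 9.71, 11.9 and 20.1 TPM in the CGy samples MO13, MO14B, MO15 and MO16. It was at 0, 5.31e-09, 6.21e-10 and 6.72e-06 TPM in the N samples MO5 to MO8 and at 8.26, 6.22, 6.47 and 11.2 TPM in NGy. The A samples MO9 to MO12 had 1.43e-06, 1.61e-06, 1.15 and 5.13 TPM, and the AGy samples MO21 to MO24 had 3.87, 7.52, 1.59 and 10.1 TPM. Only the Noggin pair did not overlap, and 1 C sample was higher than 3 of the CGy samples. A value at or next to 0 in TPM can be a failed estimate, so no fold or group mean is given for this gene.

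ENSRNOG00000013484 stood second. It was at 15, 16.8 and 10.3 TPM in C and at 31.8, 47.2, 45 and 40.0 TPM in CGy. It was at 10.8, 17.9, 14 and 14.4 TPM in N and at 26.4, 33.5, 39.2 and 44.8 TPM in NGy. It was at 12.7, 15.2, 18.4 and 25.7 TPM in A and at 39.0, 33.6, 35.3 and 69.2 TPM in AGy. Every one of the 12 irradiated samples was above every one of the 11 others, although the closest values, 26.4 TPM in NGy and 25.7 TPM in A, lay near each other. The control MO2 had 28.6 TPM, above the lowest NGy sample. The group means were 14 ± 3.36 TPM in C (SD, n = 3) and 41.0 ± 6.83 TPM in CGy (SD, n = 4), and the log2 differences were 1.49 without a pretreatment, 1.27 with Noggin and 1.23 with ascorbic acid.

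Among the down members, ENSRNOG00000013850 ranked first, with a fall of at least 1.09 log2 units under all 3 conditions. It was at 44.4, 23.6 and 84.5 TPM in C, and at 27.6, 14.8, 3.71 and 6.97 TPM in CGy. The N samples had 49.1, 32.4, 25.9 and 41.2 TPM, and the NGy samples had 21.6, 11.5, 5.21 and 4.42 TPM. The A samples had 126, 98.9, 74.3 and 62.5 TPM, and the AGy samples had 56.3, 40.2, 36.8 and 32.2 TPM. The groups did not overlap with Noggin or with ascorbic acid, while the lowest C sample was below the highest CGy sample. Levels in AGy stayed above those of every CGy and NGy sample. The log2 differences were -2.0 without a pretreatment, -1.91 with Noggin and -1.09 with ascorbic acid.

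ENSRNOG00000010972 had its highest levels with Noggin. The C samples had 16.1, 11.7 and 5.86 TPM and the CGy samples 8.38, 11.9, 1.26 and 2.59 TPM, so these groups overlapped. The N samples had 17.7, 25.7, 21.9 and 33.2 TPM, all above the NGy samples at 15.6, 14, 5.40 and 6.37 TPM. The A samples had 7.72, 8.06, 3.20 and 2.25 TPM and the AGy samples 1.70, 2.25, 2.31 and 0.959 TPM, with a slight overlap. Within CGy and within NGy this gene was low in the same 2 samples as the one before, MO15 and MO16, and MO19 and MO20. Without these 4 libraries its smallest difference went from -1.03 to -0.06.

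**Figure D2:**
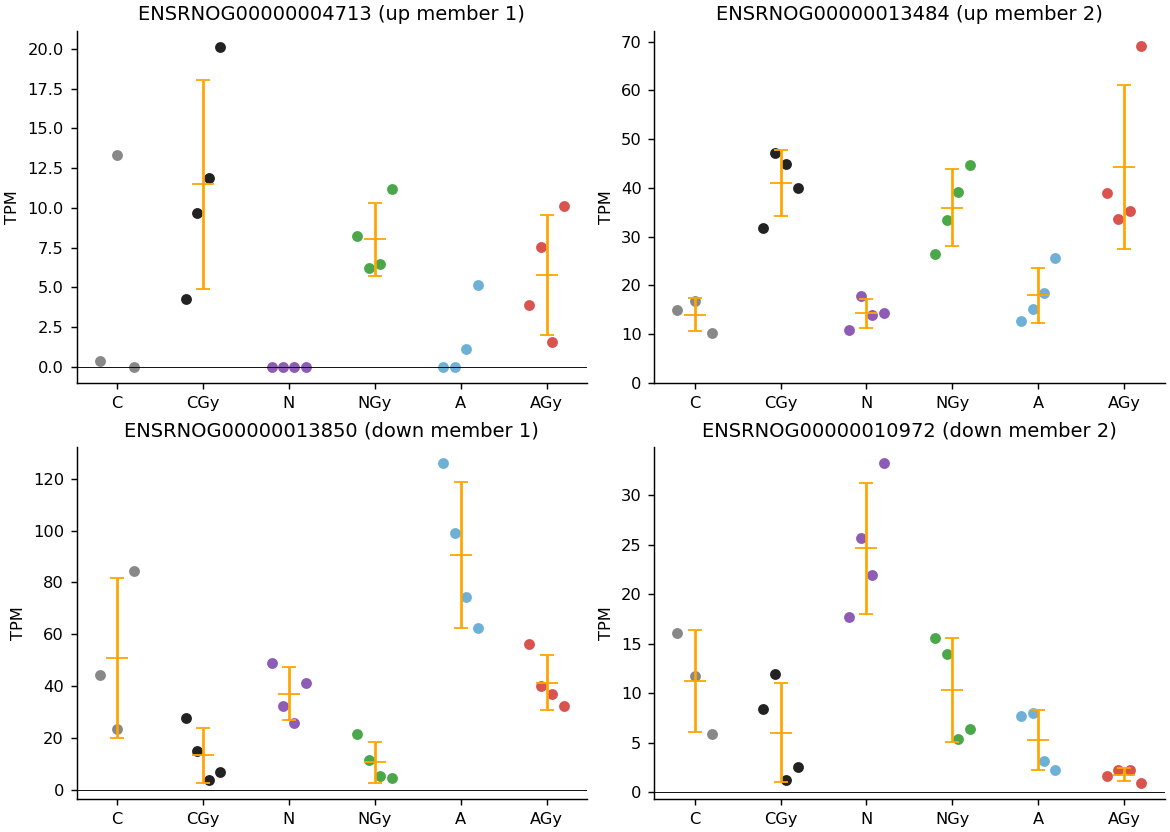
TPM of the first 2 up members (top) and the first 2 down members (bottom) in the 23 samples used, by group. Points are samples, and orange bars are the mean ± SD (n = 3 in C and 4 in the other groups), left out for ENSRNOG00000004713 in C, N and A, which hold samples at or next to 0. ENSRNOG00000013484 separates the irradiated from the other samples, while the down members show a high and a low pair of samples in CGy and NGy.

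The highest expressed members, chosen after their values were seen, ranked 29th among the up members and 5th among the down members. The first rose from 3184, 3412 and 1421 TPM in C to 3957, 4644, 4942 and 4821 TPM in CGy, with no overlap. However, the control MO2, left out of the choice, had 6270 TPM for it, above every CGy sample. The groups did not overlap with Noggin (2775 to 2990 TPM in N, 3919 to 4920 TPM in NGy). They overlapped with ascorbic acid (1484 to 2803 TPM in A, 2423 to 3986 TPM in AGy). The second was at 867.3, 489.2 and 602.6 TPM in C and at 660.4, 915.6, 94.73 and 100.7 TPM in CGy. In NGy it was at 515.0, 679.6, 116.2 and 130.3 TPM. In AGy it was at 260.4, 690.8, 672.9 and 311.1 TPM, against 668.5 to 900.4 TPM in A. For this gene MO13 and MO14B lay within or above the range of C, and MO15 and MO16 more than 4-fold below it.

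How far the members separated the groups was counted next. All CGy samples were above all C samples for 47 of the 75 up members, beside 9.30% of the eligible genes. All NGy samples were above all N samples for 44 (13.0% of eligible genes), and all AGy samples above all A samples for 29 (4.21%). All 3 pairs were free of overlap for 14 up members (0.534%). For the down members the counts were 12 without a pretreatment (6.30%), 29 with Noggin (12.4%) and 32 with ascorbic acid (4.31%). Only 2 down members were free of overlap in all 3 pairs (0.305%). The rule used these contrasts, so the counts describe the lists and nothing is read from their distance to the background.

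Across all conditions, 3 up members had all 12 irradiated samples above the 11 others (0.127% of eligible genes), and 1 down member had them below (0.0509%). These were the up members ranked 2, 14 and 33 and the down member ranked 16. The up member ranked 33 was at 38.0 to 57.5 TPM in the irradiated samples and at 22.0 to 35.8 TPM in the others. The control MO2, which had no part in the choice, was at 33.0 TPM for this gene. The down member ranked 16 was at 2.52 to 5.66 TPM in the irradiated samples and at 5.83 to 14.2 TPM in the others, with 22.9 TPM in MO2. For these 2 genes MO2 lay on the side of the non-irradiated samples, and for the up members ranked 2 and 14 it lay within the range of the irradiated samples.

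Each sample was then placed by the median log2(TPM + 1) over a list. For the up members this median was 3.89, 3.94 and 2.95 in C (MO1, MO3 and MO4) and 4.38, 4.45, 4.50 and 4.63 in CGy. It was 3.61 to 4.14 in the 4 N samples and 4.37 to 4.79 in the 4 NGy samples, and 3.21 to 3.83 in A against 3.92 to 4.51 in AGy. The groups of each pair did not overlap on this measure, and MO4 was the lowest sample. Over the eligible genes the medians of the 23 samples lay between 4.45 and 4.64. Both lists were chosen by the differences between these groups, so this separation describes the lists and nothing is read from it. Without MO4, the median of CGy minus C over these members was 0.62 in place of 0.92.

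For the down members the samples of a group were further apart. The medians were 3.70, 3.18 and 3.86 in C, but 3.35 and 3.17 in MO13 and MO14B and 2.25 and 2.17 in MO15 and MO16. In NGy they were 3.14 and 3.23 in MO17 and MO18 and 2.35 and 2.40 in MO19 and MO20. The AGy samples had 3.30, 3.43, 3.27 and 3.00, each below the A samples (3.65 to 4.06). MO13, MO17 and MO18 thus lay at or near the lowest C sample, as did MO14B, while MO15, MO16, MO19 and MO20 lay below every other sample.

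**Figure D3:**
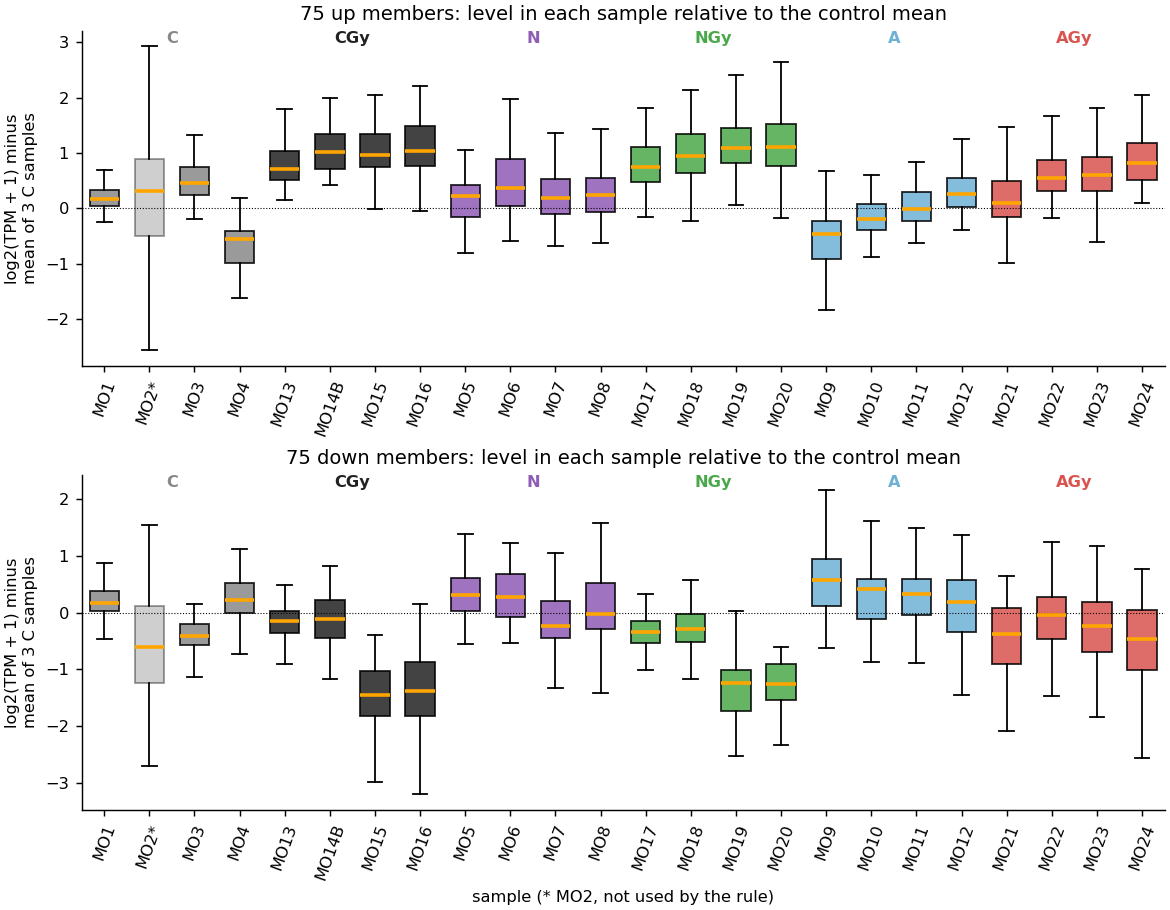
Level of the 75 up members (top) and 75 down members (bottom) in each of the 24 samples, as log2(TPM + 1) minus the mean of the 3 C samples used. Boxes span the quartiles over the 75 genes, orange lines are medians and whiskers reach 1.5 times the box height at most; outlying genes are not drawn. The medians of MO15, MO16, MO19 and MO20 for the down members lie between -1.46 and -1.24, and those of the other CGy and NGy samples between -0.34 and -0.11.

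The counts of single genes, which also come from samples that the rule used, showed the same split. In MO15, MO16, MO19 and MO20, between 72 and 73 of the 75 down members were below the lowest C sample. In the other CGy samples the number was 16 and 19, and in the other NGy samples 24 and 26. In AGy it was 37, 25, 29 and 36 in MO21 to MO24, beside 28.5%, 15.2%, 20.8% and 18.2% of eligible genes. Of the eligible genes, between 20.0% and 25.5% were below the lowest C sample in the CGy and NGy samples, with 25.5%, 24.0%, 25.4% and 24.9% in the 4 libraries. More of the eligible genes were above the highest C sample in these 4 (31.7%, 40.9%, 34.8% and 34.8%) than in the other samples of their own group (21.9% and 32.9% in CGy, 26.8% and 25.6% in NGy), except that MO15 was below MO14B. The 4 libraries also had the fewest genes at 1 TPM or more (9372 to 9437, against 9494 to 9591 in the other CGy and NGy samples), and the part of this in the down members was not tested. The up members were above the highest C sample in 57 to 69 of 75 cases in each CGy and NGy sample, beside 21.9% to 40.9% of eligible genes. In AGy this number ran from 19 in MO21, beside 23.6% of eligible genes, to 58 in MO24, beside 33.9%.

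**Figure D4:**
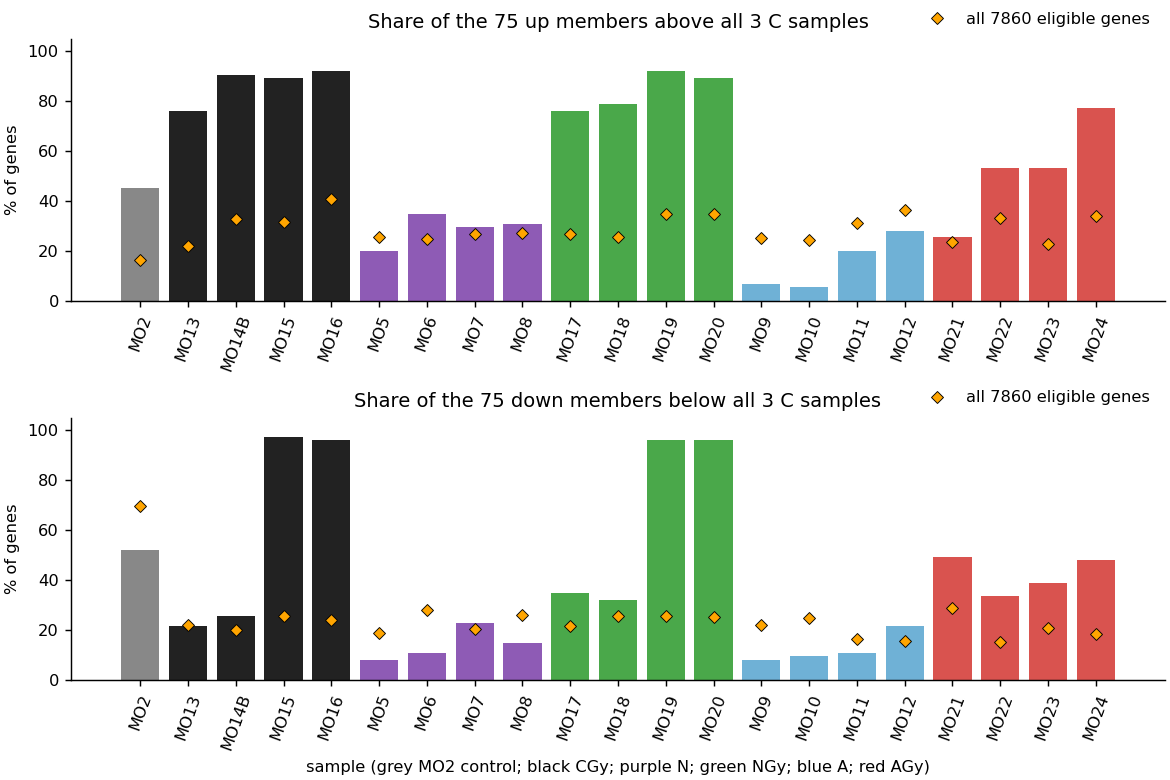
Percent of the 75 up members above the highest of the 3 C samples (top) and of the 75 down members below the lowest (bottom), for MO2 and each sample of the other groups. Bars are the members and orange diamonds the 7860 eligible genes. For the down members the bars of MO15, MO16, MO19 and MO20 reach 72 or 73 of 75 genes, and those of the other CGy and NGy samples stay at or below 26.

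Taking each gene on its own, MO15, MO16, MO19 and MO20 were all below the other 4 CGy and NGy samples for 62 down members (82.7%), beside 9.81% of the eligible genes. They were all above the other 4 for 21 up members (28.0%), beside 13.6%. The rule used CGy and NGy means that include these 4 libraries. Genes low in them were thus favored as down members, and genes high in them as up members. Nothing is read from the distance to the eligible genes. An alternative without these 4 libraries was chosen after this split was seen. The median of the down members was then -0.14 for CGy minus C, with 28 of the 75 above 0. It was -0.39 for NGy minus N. For AGy minus A, which does not involve them, it stayed at -0.58. The number of down members below 0 in all 3 differences was 43. The up members changed less, with medians of 0.82 and 0.52 for CGy minus C and NGy minus N, and 74 of 75 above 0 in all 3. Applying the rule again to the remaining samples kept 51 up members but only 20 down members. Within AGy, MO21 and MO24 were both below MO22 and MO23 for 33 down members (44.0%), beside 18.5% of eligible genes. The rule used these AGy values too. The sources used here give no batch, day or culture for any of these libraries.

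The spread within groups reflected the same split. The median SD of log2(TPM + 1) of the down members was 0.763 in CGy and 0.606 in NGy, against 0.128 and 0.115 for eligible genes, and between 0.260 and 0.462 in the other groups. The up members varied most in C, with a median SD of 0.595. The members of a list also moved together within groups. After the group means were subtracted, the mean correlation between pairs of down members over the 23 samples was 0.59, that between up members 0.46 and that between eligible genes 0.06, all from genes measured in the same libraries. A single component held 70.3% of the within-group variance of the down members, beside 30.0% for the eligible genes. The rule used group means that single libraries can move, so genes sharing a deviation in the same libraries could be favored. These values are therefore not independent of the choice of members. The authors' batch correction removed 2 within-group components. In their corrected table the mean correlations were 0.09 for the down members, 0.14 for the up members and 0.04 for the eligible genes.

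MO2 offered values that the rule did not use, but it stood apart over the transcriptome, with eligible genes a median of 0.68 log2 units below the mean of C. It was below all CGy samples for 45 up members (60.0%), beside 72.8% of eligible genes, and above all of them for 9 up members. It was above all CGy samples for 17 down members (22.7%), beside 15% of eligible genes. It was below all of them for 19 down members (25.3%), beside 72.8% of eligible genes. Among the down members, MO2 thus lay below and above all CGy samples about equally often, while for most eligible genes it lay below. Relative to the mean of C, MO2 was higher by a median of 0.32 for the up members, while the down members had a median of -0.61. With a single library no test was made.

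Differences between the pretreatments were tested next, with limma on log2(TPM + 1) over all 6 groups and the 10134 genes that averaged 1 TPM or more in one group at least. A gene was called at a Benjamini-Hochberg adjusted p of at most 0.05 and a change of at least 1.5-fold. These contrasts are not the ones of the rule, but they share its samples, so they are not independent of the choice of members. All 150 members passed the filter on low values. Over all tested genes, this fit called 0.138% between CGy and C, 2.31% between NGy and N and 0.197% between AGy and A, which are the contrasts of the rule and are not tested for the members.

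Most calls of members were between the irradiated groups AGy and CGy. Here 16 down members were higher in AGy and 7 up members were lower, so all 23 called members differed from CGy in the direction opposite to their radiation difference. The rule used the CGy and AGy values of these members. Their shared direction is therefore not independent of the choice, and nothing is read from it. The background was 3.70% of all tested genes called higher and 2.94% called lower. The median log2 difference was 0.54 over the down members and -0.36 over the up members, beside -0.01 over all tested genes. ENSRNOG00000013850 was 1.86 log2 units higher in AGy (SE 0.50, limma adjusted p = 0.0193). The down members with the largest called differences ranked 70, 48 and 36, with log2 differences of 2.20, 2.11 and 2.04. The largest called falls among the up members were -1.77, -1.49 and -1.28, at ranks 52, 68 and 44. ENSRNOG00000010972 differed in the other direction without being called (log2 difference -1.03, SE 0.48, limma adjusted p = 0.139), and ENSRNOG00000013484 differed by 0.06 (SE 0.24, limma adjusted p = 0.890).

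These calls changed with the libraries used. Without MO15, MO16, MO19 and MO20, 9 members were called between AGy and CGy, all of them down members and all lower in AGy, and no up member was called. Leaving out single libraries gave 3 called members, all down members, without MO15, MO16 or MO21, 14 without MO22, 15 without MO23 and 35 without MO4, in place of 23. In the batch-corrected table, 56 members were called, 35 higher and 21 lower in AGy. The share of all tested genes called is not given for these alternatives. From the member counts alone, a change particular to the members cannot be told from a change over all genes.

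Between the irradiated groups NGy and CGy 0 members were called by limma, beside 0.237% of all tested genes, and 14 up members and 2 down members had an unadjusted p under 0.05, beside 13.2% of all tested genes. The median log2 differences were -0.01 and -0.04 for the up and down members, with single members between -0.96 and 0.90. In these groups MO19 and MO20 on one side and MO15 and MO16 on the other were low for the down members, and without all 4 the count was again 0. The count was 1 without MO4 and 1 without MO14B, and the batch-corrected table gave 6.

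Without irradiation, 2 up members were called between N and C, both higher with Noggin, beside 0.385% of all tested genes called higher. The member ranked 65 was at 9.67, 11.3 and 5.75 TPM in C and at 14.6, 17.3, 16.7 and 19.8 TPM in N, without overlap (log2 difference 0.91, SE 0.18, limma adjusted p = 0.0256). The member ranked 67 was at 1.12, 1.80 and 0.432 TPM in C and at 3.02, 4.19, 2.85 and 4.88 TPM in N (log2 difference 1.19, SE 0.26, limma adjusted p = 0.0369). Both were higher in NGy than in N, by 0.43 and 0.42 log2 units, as the rule requires of the up members. The median difference over the list was 0.20 for the up members and 0.06 for the down members, beside 0.04 over all tested genes. With only N and C in the fit, 0 members were called. Leaving out 1 library gave 8 without MO3, 1 without MO1, MO18 or MO23, and 0 without MO4, MO6, MO7 or MO8.

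Between A and C, 0 members were called by limma, beside 0.602% of all tested genes, and 7 up members and 15 down members had an unadjusted p under 0.05, beside 18.3% of all tested genes. The median log2 difference was -0.08 over the up members and 0.36 over the down members, beside 0.03 over all tested genes. In A, 51 of 75 down members were above and 24 below their level in C. ENSRNOG00000013850 had a log2 difference of 0.95 (SE 0.54, limma adjusted p = 0.370). Leaving out MO4 gave 11 called members, leaving out MO5 or MO9 gave 1, and the batch-corrected table gave 29.

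**Figure D5:**
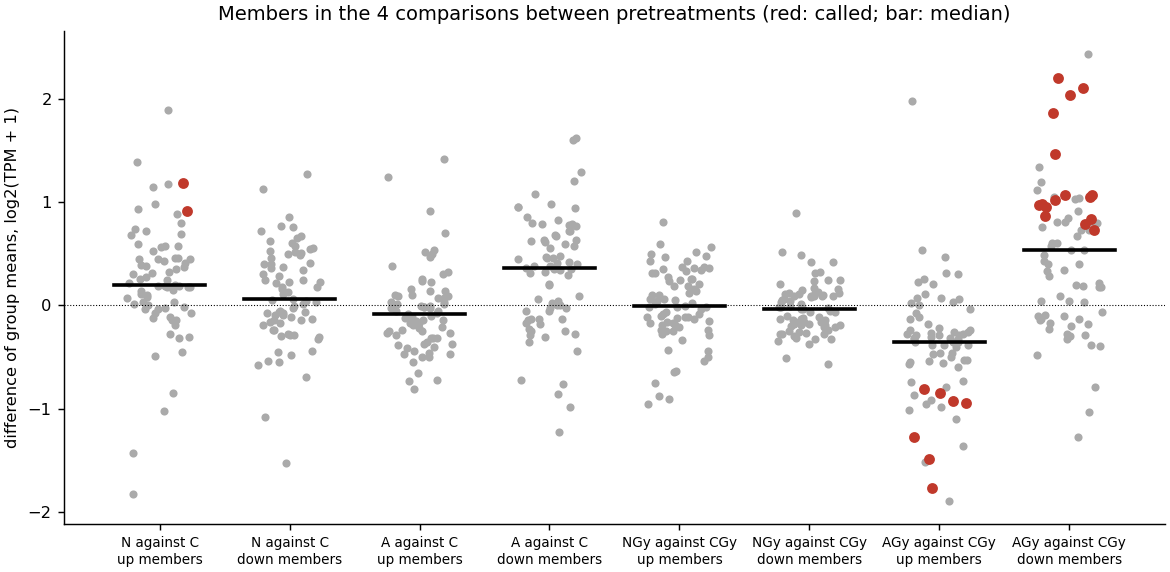
Difference of group means of log2(TPM + 1) for each up and down member in the 4 comparisons between pretreatments. Red points passed the call of adjusted p at most 0.05 and 1.5-fold, grey points did not, and black bars are medians over the 75 members. Called members are 2 in N against C and 23 in AGy against CGy, where the up members lie mostly below and the down members mostly above 0.

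Some members were listed at exactly 0 TPM in single samples, which happened for 5 up members and 4 down members (6.67% and 5.33%), against 0.394% of the eligible genes. For the up member ranked 5, the values were 0, 139 and 85.2 TPM in C and 163, 0, 180 and 163 TPM in CGy, so a listed 0 stood beside more than 100 TPM within 1 group.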

How the data were processed

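RNA of 24 NSp samples was sequenced by the authors. They estimated TPM per gene with kallisto and deposited TPM for 24 samples, and named STAR 2.6.1 and rat build Rn7 for alignment. They also deposited a batch-corrected table without MO2, whose values are a score equal to 0.5 times the corrected TPM + 1. That correction removed 2 within-group components and left the group means unchanged (largest change 4e-09 log2 units), so it used the group labels and shrank the spread within groups. It served as an alternative only.

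The uncorrected TPM without MO2 were used, on the log2(TPM + 1) scale with a pseudocount of 1. Fold changes on this scale understate the change of low genes. Columns were assigned to groups by the study's sample identifiers. Members were eligible at a mean of 5 TPM in any group. The members and lists were chosen with earlier results of these data known. The pretreatment comparisons used limma 3.58.1 in R 4.3.3, with figures from matplotlib 3.10.9. In simulated data for N against C (10134 genes), 84.1% of 200 genes changed by 1 log2 unit were called, with a median of 4 false calls over 20 simulations. The simulated noise was independent between genes, with the same spread in every group. The measured members moved together within groups and their spread differed between groups, so these rates need not hold for them. Genes to be named were the first members by rank, the called members with the largest differences and those at the limit of the lists. With 0 identifiers matched to a name, 4 identifiers are printed, the gene and marker lists and promoter sequences were not used, and 0 genes were dropped as named elsewhere. TPM keep no counts, so depth and counting error are unknown. The 23 libraries summed to between 615330 and 655289 TPM over the listed genes, with 9372 to 9720 genes at 1 TPM or more. No pair of samples was identical.

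Alternatives were the corrected table, MO2 included, a pseudocount of 0.1, other filters on low values, quantile normalization, a fit of the compared groups alone, a variance trend, no fold threshold and each sample left out. Leaving out 4 libraries or genes listed at 0 was added after the data were seen.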

Additional observations from a re-analysis of the deposited data

How the results depend on the processing

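The medians of the 3 radiation differences kept their sign in both lists under every alternative run. Leaving out 1 sample at a time kept 60 to 73 up members and 50 to 70 down members. The median of CGy minus C then ran from 0.62 to 1.14 for the up members and from -0.96 to -0.52 for the down members. Without MO15, MO16, MO19 and MO20, 20 down members were kept, and with MO2 included 50.

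The numbers of members called between pretreatments depended more on the processing. In the batch-corrected table they were 23 for N against C, 29 for A against C, 6 for NGy against CGy and 56 for AGy against CGy, with the spread reduced by the correction itself. Without a filter on low values, N against C gave 0 and AGy against CGy 10. With the compared groups alone in the fit, N against C gave 0. Without MO15, MO16, MO19 and MO20, N against C gave 1, and AGy against CGy gave 9, all lower. With MO2 included, A against C gave 1 and AGy against CGy 6. A against C gave 1 without a fold threshold, and NGy against CGy gave 1 with quantile normalization and 1 with a variance trend. Leaving out 1 sample at a time gave 0 to 8 for N against C, 0 to 11 for A against C, 0 to 1 for NGy against CGy and 3 to 35 for AGy against CGy. Here and above, counts of members under the alternatives stand without the share of all tested genes called in the same setting. They therefore do not show whether the members changed more than other genes. Apart from the corrected table, the cause of these changes was not tested. No paired analysis was possible because the columns of the tables carry no replicate numbers that match the labels.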
